A study of Mus musculus with 9 samples.

Results

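RNA levels were compared between a mouse epiblast stem cell line freed of the inhibitor IWP2 after derivation (IWP2_removed, n = 2 libraries) and a line in which IWP2 was kept (IWP2, n = 2 libraries). These were 4 of the 9 libraries in the study, taken by the treatment that the labels give. Epiblast stem cells are pluripotent cells taken from the epiblast of the post-implantation embryo, and both groups grew on inactivated mouse embryonic fibroblasts with FGF2 (10 ng/mL) and activin A (20 ng/mL). The IWP2 group received the inhibitor at 5 µM, and for IWP2_removed no inhibitor is listed. The treatment protocol also names SB431542, an inhibitor of activin and Nodal receptors, which is not listed as an inhibitor for either group. An untreated control (n = 2) grown in the same FGF2 and activin A is given as a reference level, with no test against it. These 2 libraries and 3 of a Dkk1 knockout (Dkk1_KO) in the same factors also entered the fit. There they helped to set the spread, the scaling and the filter on low counts. The series is described as 4 lines with replicates, so each group is 1 line, and an effect of the line and of the treatment cannot be told apart. The labels give no strain or genotype beyond these names. They do not say whether libraries of a group came from separate derivations or cultures, so p-values measure only the spread between these libraries, which may be technical.

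IWP2 blocks Porcupine, the enzyme that attaches a lipid to Wnt proteins and so permits their secretion. Secreted Wnts bind Frizzled and Lrp receptors, stabilise beta-catenin and act through Tcf/Lef factors on targets such as Axin2 and Lef1. In the epiblast this pathway, together with Nodal, promotes primitive streak and mesendoderm fates, and epiblast stem cells are known to make Wnts of their own. The comparison shows which transcripts differ between a line after removal and a line still in the inhibitor. Wnt secretion was not measured, and its part cannot be told apart from other differences between the lines.

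Each group held 1 library lettered B and 1 lettered C by the submitters. Estimated reads were 16885451 (B) and 17892751 (C) for IWP2 and 15816711 and 16001561 for IWP2_removed. All 8 epiblast markers checked, Pou5f1, Sox2 and Nanog among them, were present in these 4 libraries, at 5.26 to 1113 CPM, the counts scaled to a common library total. The 8 fibroblast markers lay at 32.1 to 1150 CPM and the 4 neuron markers at 7.02 to 220 CPM. Markers of trophoblast reached at most 3.08 CPM, of visceral endoderm 0.723 CPM and of blood and endothelium 4.05 CPM. The IWP2 pair stood furthest apart, with a median SD of log2 CPM over genes of 0.291, against 0.159 in IWP2_removed, 0.168 in control and 0.0580 in Dkk1_KO. Pou5f1 showed this, at 332 and 1113 CPM in the IWP2 libraries and 534 and 736 CPM in the IWP2_removed libraries. In Dkk1_KO its mean was 1.39 CPM ± 0.284 (SD, n = 3).

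Few genes passed the test, and the change with the greatest fold was in Gdf3, a ligand of the TGF-beta family related to Nodal and made by pluripotent cells. Zfp984, a KRAB zinc finger gene, was also higher in IWP2_removed. Rtn1, a reticulon of the endoplasmic reticulum best known from neurons, was lower, as were Gprin1 and Ube2ql1. Of 18096 genes tested with edgeR's quasi-likelihood test, 7 were higher (0.0387% of genes tested) and 4 lower (0.0221%) in IWP2_removed at a Benjamini-Hochberg adjusted p below 0.05. Of these 11 genes 9 were also at least 2-fold different in the same direction in both letters (5 higher and 4 lower). The calls depended on the libraries in the fit: without Dkk1_KO only Gdf3 was called, and with only the 4 libraries compared no gene was, although 663 genes had an unadjusted p below 0.05. All 11 kept their direction in both fits. Leaving out any 1 control, Dkk1_KO or IWP2_removed library left at most 2 of the 11 called, whereas 195 genes were higher and 200 lower without IWP2 library B, and 137 and 317 without IWP2 library C.

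Gdf3 stood at 1.72 CPM (B) and 1.57 CPM (C) in the IWP2 libraries and at 44.1 and 32.4 CPM in the IWP2_removed libraries. Every IWP2_removed value lay above every IWP2 value, and the control libraries, at 44.0 and 32.1 CPM, lay beside those of IWP2_removed. The log2 fold change was 4.53 ± 0.46 (SE), with an adjusted p of 0.0281 (edgeR, 9 libraries) and of 0.0400 in the 6 libraries without Dkk1_KO. The gene lies on the minus strand at chr6:122605403-122610087 (GRCm38). Of 20 genes of the pathway tested, Gdf3 was the only one called, and 8 were higher and 2 lower in both letters. Over all genes tested 27.6% were higher and 25.4% lower in both letters. The median log2 fold change of the 20 genes was 0.27 against -0.01 over all genes tested. Nodal, the ligand itself, measured 32.0 and 77.2 CPM with IWP2 and 70.9 and 60.2 CPM after removal, so its groups overlapped. The co-receptor Tdgf1 measured 178 and 240 CPM against 322 and 271 CPM, with an adjusted p of 0.67 by edgeR's quasi-likelihood test.

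Zfp984 (chr4:147753974-147809788, minus strand) measured 1.39 and 1.74 CPM with IWP2, 7.56 and 8.04 CPM after removal and 16.8 and 15.4 CPM in control. Its rise of 2.31 ± 0.21 on the log2 scale (edgeR adjusted p = 0.0178) put the IWP2_removed libraries between the other groups, with no overlap. It was the only one called among 16 tested KRAB zinc finger genes of chromosome 4, whose median log2 fold change was 0.03. Genes of this kind sit in near-identical clusters, between which estimated counts can be split uncertainly. Olfr784, annotated as an olfactory receptor gene, measured 7.67 and 9.23 CPM with IWP2, 34.3 and 42.5 CPM after removal and 34.3 and 43.5 CPM in control (log2 fold change 2.18 ± 0.18, edgeR adjusted p = 0.0171). The long non-coding RNA Gm45322 had the same order of groups, from 8.56 and 7.84 CPM with IWP2 to 21.1 and 21.0 CPM after removal, beside 25.2 and 31.1 CPM in control. Gm42047, another long non-coding RNA, differed from these. It was already high with IWP2, at 228 and 212 CPM against 36.1 and 44.3 CPM in control, and was higher still after removal, at 749 and 652 CPM (log2 fold change 1.67 ± 0.15, edgeR adjusted p = 0.0171).

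The last pair of higher genes lies on chromosome 3. Pip5k1a, a kinase that makes the membrane lipid phosphatidylinositol bisphosphate, measured 69.6 and 59.6 CPM with IWP2 and 130 and 141 CPM after removal, with control at 68.7 and 70.2 CPM. Snx27, a sorting nexin that returns receptors from endosomes to the cell surface, measured 90.9 and 83.4 CPM against 162 and 183 CPM, with control at 106 and 95.5 CPM. In both genes the IWP2 and control libraries lay together and the IWP2_removed libraries apart. Their log2 fold changes were 1.07 ± 0.12 and 0.98 ± 0.12 (edgeR adjusted p = 0.0387 and 0.0499), and neither reached 2-fold in letter B.

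**Figure D1:**
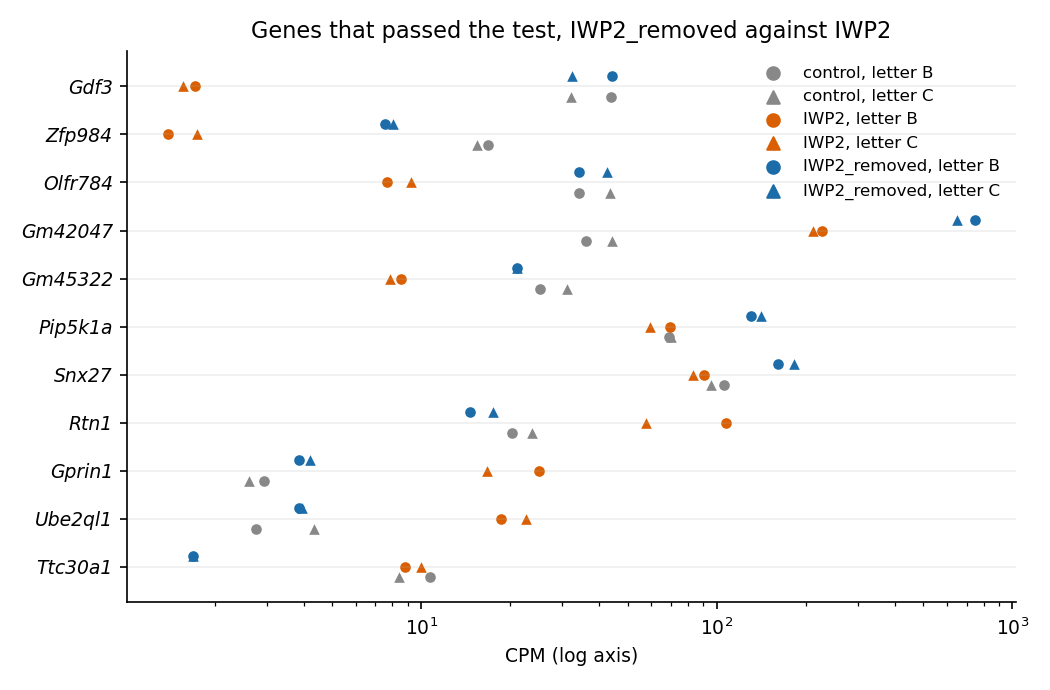
CPM in each control, IWP2 and IWP2_removed library (log axis) for the 11 genes that passed edgeR's test, with 1 point per library and the letter shown by the symbol. Gdf3 lies at 1.57 to 1.72 CPM in the IWP2 libraries and at 32.4 to 44.1 CPM after removal, whereas Rtn1, Gprin1, Ube2ql1 and Ttc30a1 lie lower after removal.

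Rtn1 fell most in letter B. It measured 108 (B) and 57.4 CPM (C) with IWP2, 14.6 and 17.5 CPM after removal and 20.3 and 23.7 CPM in control. The IWP2 libraries stood above all others, and the log2 fold change was -2.36 ± 0.28 (edgeR adjusted p = 0.0395). The gene occupies chr12:72211752-72409054 on the minus strand and is transcribed from 3 groups of starts. By TPM, a level scaled to transcript length, transcripts of the inner start summed to 25.9 and 11 with IWP2 and 2.99 and 3.99 after removal. The 4 transcripts of the middle start summed to 25.3 and 10.0 against 3.88 and 3.46. The distal start gave 6.27 and 2.21 against 0.762 and 0.666. All 3 starts were therefore lower in both IWP2_removed libraries.

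Gprin1, a membrane protein that promotes neurite outgrowth downstream of G proteins, measured 25.1 and 16.7 CPM with IWP2, 3.87 and 4.21 CPM after removal and 2.94 and 2.61 CPM in control (log2 fold change -2.37 ± 0.27, edgeR adjusted p = 0.0390). Ube2ql1, related to the E2 enzymes of ubiquitin transfer, measured 18.6 and 22.6 CPM, 3.87 and 3.96 CPM, and 2.76 and 4.35 CPM in the same order (log2 fold change -2.39 ± 0.29, edgeR adjusted p = 0.0499). In both genes IWP2_removed lay near control and only the IWP2 libraries were high. The 250 bases upstream of each start of these 3 genes (RefSeq, GRCm38.p6, all on the minus strand, written 5′ to 3′) are shown because the genes fell together. Capitals mark CTTTGA, the core bound by Tcf/Lef factors, or CAGATG, an E-box bound by neurogenic bHLH factors, on either strand (TCAAAG and CATCTG on the other). The motifs do not overlap each other.
Rtn1 inner start, chr12:72235747-72235996: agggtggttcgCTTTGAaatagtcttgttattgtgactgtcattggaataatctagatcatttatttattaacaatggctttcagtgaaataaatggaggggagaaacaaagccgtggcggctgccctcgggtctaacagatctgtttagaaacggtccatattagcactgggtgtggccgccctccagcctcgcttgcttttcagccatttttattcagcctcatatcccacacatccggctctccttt
Rtn1 middle start, chr12:72236728-72236977: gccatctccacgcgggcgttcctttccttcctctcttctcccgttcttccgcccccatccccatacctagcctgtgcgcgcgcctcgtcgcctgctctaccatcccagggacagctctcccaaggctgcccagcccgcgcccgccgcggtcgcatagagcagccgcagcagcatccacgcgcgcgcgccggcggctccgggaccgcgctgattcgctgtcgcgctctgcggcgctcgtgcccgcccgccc
Rtn1 distal start, chr12:72409055-72409304: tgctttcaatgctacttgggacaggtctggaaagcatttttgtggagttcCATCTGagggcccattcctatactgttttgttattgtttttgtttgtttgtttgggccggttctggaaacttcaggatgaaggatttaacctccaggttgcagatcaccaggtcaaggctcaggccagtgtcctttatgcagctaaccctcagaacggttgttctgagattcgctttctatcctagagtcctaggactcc
Gprin1, chr13:54749875-54750124: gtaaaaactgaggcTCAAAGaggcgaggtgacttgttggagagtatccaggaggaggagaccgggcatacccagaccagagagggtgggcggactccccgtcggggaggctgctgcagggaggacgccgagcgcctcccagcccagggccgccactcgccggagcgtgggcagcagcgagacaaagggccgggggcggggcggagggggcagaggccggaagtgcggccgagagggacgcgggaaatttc
Ube2ql1, chr13:69739898-69740147: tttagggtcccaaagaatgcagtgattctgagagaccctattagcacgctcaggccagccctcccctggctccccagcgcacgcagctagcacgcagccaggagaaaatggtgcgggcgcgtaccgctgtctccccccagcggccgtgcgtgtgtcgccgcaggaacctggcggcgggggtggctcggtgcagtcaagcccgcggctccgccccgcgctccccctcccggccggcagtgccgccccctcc
The inner Rtn1 start and Gprin1 each hold 1 match to the Tcf/Lef core and the distal Rtn1 start 1 match to the E-box, while the middle Rtn1 start and Ube2ql1 hold neither. Among 27025 genes with a listed promoter, 15.8% hold CTTTGA and 16.3% hold CAGATG upstream of at least 1 start. Of the 7 called genes with a promoter listed, 3 hold the first and 2 the second. Of 21 genes of the neuronal differentiation list with a promoter listed, 3 (14.3%) hold CTTTGA and 5 (23.8%) hold CAGATG. A match is a description of letters, not a measured binding site.

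Ttc30a1, a part of the intraflagellar transport machinery of cilia, was the fourth gene to fall and had its own pattern. It measured 8.84 and 9.99 CPM with IWP2 and 10.7 and 8.39 CPM in control, but 1.69 and 1.70 CPM after removal (log2 fold change -2.47 ± 0.26, edgeR adjusted p = 0.0321). Its near copy Ttc30b measured 4.78 and 4.24 CPM with IWP2 and 3.63 and 3.90 CPM after removal. A further copy, Ttc30a2, was too low to test, with 9 and 14 estimated reads with IWP2 and 0 in either IWP2_removed library, and the split of reads between these copies is uncertain.

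Without a pooled variance, 44 genes were at least 2-fold higher (0.243% of those tested) and 68 at least 2-fold lower (0.376%) in both letters, counted where the mean of the higher group reached 5 CPM. For comparison, 600 such genes differed 2-fold in letter B, 403 in letter C, and 20 differed 2-fold in opposite directions. Across 11859 genes with a mean of 5 CPM, the letter B and letter C differences correlated at r = 0.25. These are 4 libraries, so genes are not independent replicates. The rule that a difference be seen in both letters thus kept 112 genes.

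**Figure D2:**
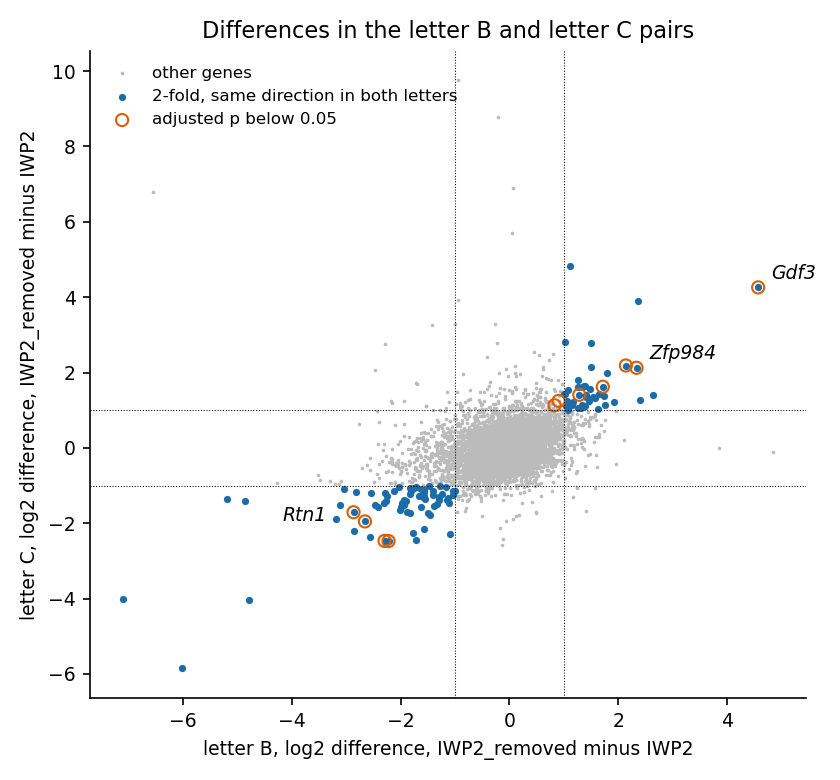
Log2 difference in CPM between IWP2_removed and IWP2 in letter B (horizontal) and letter C (vertical), 1 point per gene with at least 5 CPM in the higher group. Blue points are the 112 genes at least 2-fold in the same direction in both letters, orange rings the 11 genes called by edgeR, and dotted lines mark 2-fold.

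Among the 44 genes higher in both letters, those nearest the threshold of the test that did not pass included Cfap74, a ciliary gene, at 7.17 and 8.71 CPM with IWP2 and 16.2 and 20.5 CPM after removal (edgeR adjusted p = 0.0734). Def6, a guanine nucleotide exchange factor of immune cells, measured 13.1 and 11.3 CPM against 33.0 and 23.6 CPM (edgeR adjusted p = 0.0734). Slc26a10, of an anion transporter family, measured 1.28 and 2.5 CPM against 8.71 and 6.85 CPM. The transcription factor Stat6 measured 15.4 and 8.88 CPM against 32.1 and 21.4 CPM. In each of these the groups did not overlap, but the genes were picked for a difference in both letters, so this is not separate evidence. The clustered protocadherin Pcdhgb5, a neural cell adhesion gene, measured 6.67 and 2.09 CPM with IWP2, 35.1 and 33.1 CPM after removal and 8.73 and 6.46 CPM in control (edgeR adjusted p = 0.0839). Its neighbour Pcdhgb7 measured 5.17 and 1.28 CPM against 14.8 and 9.61 CPM. Of 51 clustered protocadherins tested 23 were higher and 7 lower in both letters, and none was called by edgeR (8 higher and 2 lower at an unadjusted p below 0.05, DESeq2 calling 4 higher), whereas over all genes tested 27.6% were higher and 25.4% lower in both letters. Pcdhgb members share exons, so their reads can be split uncertainly.

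Genes of neuronal differentiation, a list of 28 that were all tested, were mostly lower after removal. Of these 25 were lower and 1 higher in both letters, beside 25.4% and 27.6% of all genes tested. At least 2-fold lower in both were 8, beside 0.376% of all genes tested. By edgeR 21 had a lower value with an unadjusted p below 0.05 (background 5.61%), and only Rtn1 was called. The DESeq2 Wald test, which called 339 genes in all, called 9 lower (Rtn1, Dcx, Gap43, Chga, Scg2, Scg3, Nefl, Stmn2 and Uchl1) and Nefm higher, while limma-trend on TPM called none. The median log2 fold change was -1.28, the lowest of the 36 lists examined, against -0.01 over all genes tested. The list was chosen with earlier results on these libraries known, so its direction is not independent evidence. Without Rtn1, Dcx and Nnat, whose values were already known, 22 of 25 were lower in both letters. In bulk RNA, fewer cells of a type and less RNA per cell cannot be told apart.

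Summed over the list, the neuronal genes measured 1748 (B) and 1336 CPM (C) with IWP2, 634 and 790 CPM after removal and 420 and 511 CPM in control. Both IWP2 libraries lay above all the others. Dcx, a microtubule protein of migrating neurons, measured 182 and 85.9 CPM with IWP2, 54.1 and 41.2 CPM after removal and 12.6 and 13.7 CPM in control. Nnat, an imprinted gene of developing brain, measured 450 and 211 CPM, 154 and 125 CPM, and 30.5 and 13.8 CPM in the same order. For both, the IWP2_removed libraries lay between IWP2 and control. Gap43, a growth cone protein, measured 73.7 and 81.2 CPM with IWP2, 24.6 and 36.0 CPM after removal and 24.7 and 28.8 CPM in control, so removal and control overlapped (edgeR adjusted p = 0.0688). Uchl1, an abundant neuronal deubiquitinase, measured 129 and 138 CPM, 61.2 and 83.2 CPM, and 57.2 and 74.5 CPM. Tubb3, the neuronal beta-tubulin, was uneven, at 144 and 220 CPM with IWP2 and 41.6 and 118 CPM after removal.

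Proneural factors, which start neuronal differentiation, were present at low level. Neurog1 measured 2.22 and 4.59 CPM with IWP2 and 0.424 and 1.32 CPM after removal, and Neurod4 2.61 and 6.85 CPM against 0.787 and 1.88 CPM. Of the granule and synapse genes on the list, Scg3 measured 15.3 and 11 CPM against 3.75 and 3.64 CPM, Chga 10.8 and 12.6 CPM against 4.30 and 4.78 CPM, and Snap25 8.17 and 4.76 CPM against 2.36 and 2.58 CPM. Outside the list, and named after their values were seen, the guidance receptor Robo3 measured 31.3 and 29.7 CPM against 4.30 and 13.1 CPM. The vesicular glutamate transporter gene Slc17a6 measured 14.6 and 5.05 CPM against 1.57 and 1.70 CPM. Insm1, a factor of neuronal and endocrine progenitors, measured 15.8 and 18.0 CPM against 3.09 and 6.47 CPM. Gal, encoding the neuropeptide galanin, measured 25.4 and 29.9 CPM against 7.38 and 6.09 CPM (edgeR adjusted p = 0.0688).

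Nefm, a neurofilament subunit, went against the list, at 3.22 and 4.94 CPM with IWP2, 11.5 and 20.1 CPM after removal and 11.6 and 13.1 CPM in control (edgeR adjusted p = 0.122). Its partner subunit Nefl measured 51.8 and 69.5 CPM with IWP2 and 35.5 and 28.5 CPM after removal. The 2 neurofilament genes thus had opposite directions in both letters. Among 30 neural ectoderm genes tested, which mark progenitors rather than neurons, 14 were lower and 2 higher in both letters. Over all genes tested these shares were 25.4% and 27.6%. The median of the 30 genes was -0.38 on the log2 scale, and none was called by edgeR or DESeq2 (3 lower at an unadjusted p below 0.05). Fibroblast genes more often had the other direction. Of 32 on the feeder list 17 were higher and none lower in both letters, and none was called by edgeR or DESeq2 (6 higher at an unadjusted p below 0.05). Their summed level was 9213 and 6585 CPM with IWP2, 10545 and 7951 CPM after removal and 10586 and 10126 CPM in control. For IWP2 and IWP2_removed it differed more between letters than between groups, and these groups overlapped. The neuronal sum was 2.76 and 1.69 times higher with IWP2 in letters B and C, and the feeder sum was 1.14 and 1.21 times lower. The part of the feeder share in the neuronal differences was not tested.

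**Figure D3:**
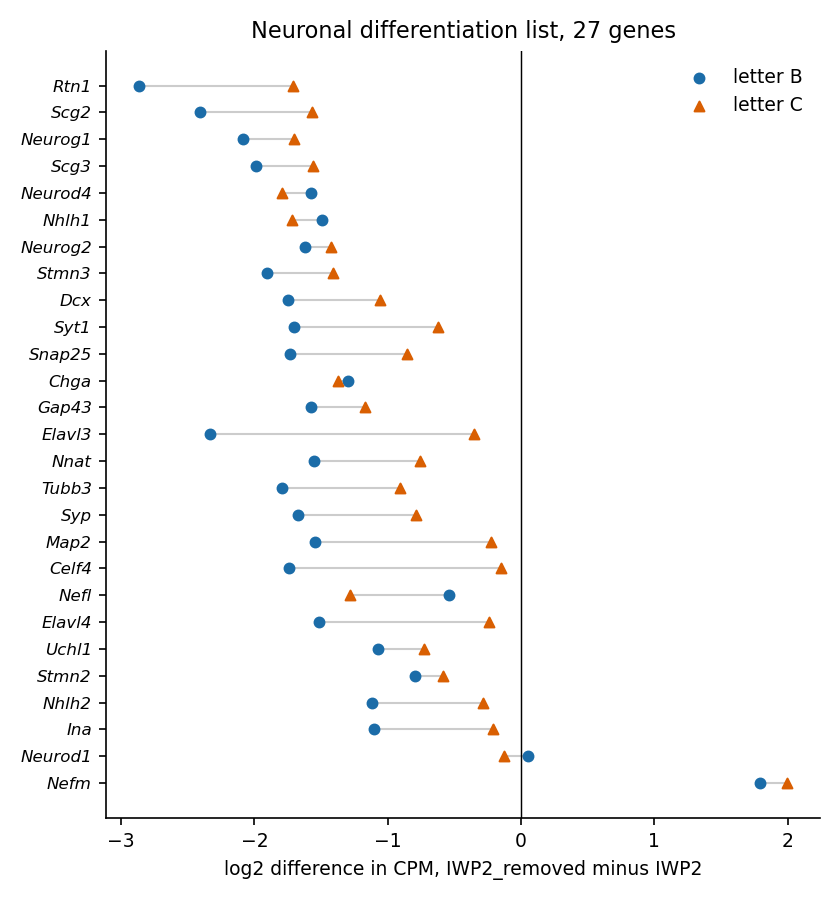
Log2 difference in CPM between IWP2_removed and IWP2 for 27 genes of the neuronal differentiation list, with letter B as circles and letter C as triangles, ordered by the fitted log2 fold change. Of the 27 genes 25 lie below 0 in both letters, and Nefm alone lies above 0 in both.

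Wnt target genes gave no called gene. Of 25 tested 13 were higher and 3 lower in both letters, beside 27.6% and 25.4% of all genes tested. Their median was 0.19 on the log2 scale. By edgeR 2 were higher and 0 lower at an unadjusted p below 0.05 (background 4.08%), and DESeq2 and limma-trend called none. Axin2, a feedback inhibitor used as a readout of the pathway, measured 34.9 and 22.2 CPM with IWP2, 39.4 and 30.7 CPM after removal and 38.5 and 34.9 CPM in control, so the groups overlapped (edgeR adjusted p = 0.824). Lef1, a target and a transcription factor of the pathway, measured 8.06 and 10.4 CPM against 14.5 and 13.9 CPM (log2 fold change 0.63 ± 0.22, edgeR adjusted p = 0.379). It lies in the stretch of chromosome 3 described later, where the median log2 fold change was 0.58. Brachyury (T), the streak gene, measured 136 and 28.4 CPM with IWP2 and 54.1 and 30.2 CPM after removal. Dkk1, a secreted antagonist, measured 2.89 and 0.348 CPM against 3.45 and 5.84 CPM, and 6.77 and 8.95 CPM in control. Sost, another antagonist, measured 16.4 and 3.89 CPM against 39.3 and 13.9 CPM, and Nkx1-2, a caudal epiblast factor, 13 and 4.41 CPM against 34.5 and 14.0 CPM. In Sost and Nkx1-2 the difference was over 2-fold within each letter, but neither gene passed the test (edgeR adjusted p = 0.734 and 0.562). Porcn, which encodes the target of IWP2, measured 11.7 and 17.0 CPM against 8.35 and 11.8 CPM.

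The other Wnt lists had no call by edgeR either, with 0 to 2 genes higher and 0 to 2 lower in each at an unadjusted p below 0.05, and DESeq2 called only Bcl9, a beta-catenin partner on chromosome 3, higher. In both letters 27.6% of all genes tested were higher and 25.4% lower, the shares to set beside the counts of this paragraph. Of 17 ligands 8 were higher and 6 lower in both letters, of 16 Frizzled and Lrp receptors 6 and 3, and of 17 secreted antagonists 7 and 3. Of 9 secretion and R-spondin genes 4 were higher and 3 lower, and of 15 beta-catenin and Tcf/Lef genes 5 and 1. Of these 15 genes 13 lie outside the chromosome stretches described later, with 3 higher and 1 lower. Core pluripotency genes also gave no call, and their median was -0.01 (edgeR, 2 higher at an unadjusted p below 0.05, none by DESeq2). In both letters 4 of 13 were higher (30.8%) and 3 lower (23.1%), near the shares of all genes tested. Nanog measured 126 and 295 CPM with IWP2 and 205 and 244 CPM after removal, so the IWP2 libraries lay on either side of the others. Sox2 measured 97.0 and 160 CPM against 73.2 and 118 CPM. Primitive streak and caudal genes gave 9 higher and 5 lower of 20, with none called by edgeR or DESeq2 and 0 at an unadjusted p below 0.05. Genes of the p53 response had the highest median of any list, 0.46, with 11 of 18 higher and none lower in both letters. None was called by edgeR or DESeq2, and 3 were higher at an unadjusted p below 0.05. Phlda3, a p53 target that restrains Akt, measured 79.7 and 77.0 CPM against 168 and 97.1 CPM, and Zmat3, an RNA-binding p53 target, 147 and 158 CPM against 252 and 194 CPM (edgeR adjusted p = 0.267 and 0.279). Of 28 glycolysis and hypoxia genes 18 were higher and 1 lower in both letters, with a median of 0.25. None was called by edgeR (2 higher at an unadjusted p below 0.05), and DESeq2 called only Ndrg1, higher. Their summed level was 5786 (B) and 13985 CPM (C) with IWP2 and 6590 and 15029 CPM after removal, so it differed more between letters than between groups. Striated muscle genes had the next lowest median after the neuronal list, -0.88, with 9 of 14 lower and 1 higher in both letters. None was called by edgeR or DESeq2, and 1 was higher and 3 lower at an unadjusted p below 0.05. Myog, the factor of muscle differentiation, measured 1.5 and 6.33 CPM with IWP2 and 0.545 and 0.628 CPM after removal. In all, only 3 of the 36 lists held a called gene.

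Whole stretches of some chromosomes differed between the groups. Genes of chromosome 13 as a whole, of chromosome 12 beyond 70 Mb and of chromosome 3 beyond 140 Mb were lower after removal, and genes of chromosome 3 between 90 and 140 Mb were higher, by like amounts in both letters. These boundaries were chosen after the values were seen, so the medians are descriptions with no test. In the middle stretch of chromosome 3 the median log2 fold change of 261 genes with a mean of 5 CPM was 0.58, with 0.57 in letter B and 0.57 in letter C, and 83.5% of genes were higher in both. In the distal stretch the median of 53 genes was -0.74, and 84.9% were lower in both. Distal chromosome 12 had a median of -0.47 over 257 genes with 79.4% lower in both, and chromosome 13 a median of -0.49 over 426 genes with 82.4% lower in both. Over 10862 genes elsewhere the median was 0.00. The 24 windows of 10 Mb within these stretches had medians from -0.76 to 0.60, and the 216 elsewhere from -0.27 to 0.19. DNA was not measured.

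Set against the control mean, the groups that stood apart differed between stretches. In the middle stretch of chromosome 3 the IWP2 libraries had medians of -0.07 and -0.01 and the IWP2_removed libraries 0.51 and 0.62. In its distal stretch IWP2_removed stood at -0.65 and -0.86 and IWP2 at -0.02 and -0.14. On chromosome 13 it was the IWP2 libraries that stood apart, at 0.36 and 0.41, with IWP2_removed at -0.04 and -0.02. On distal chromosome 12 IWP2 stood at 0.25 and 0.37 and IWP2_removed at -0.13 and -0.14. On the rest of chromosome 12 IWP2 stood at -0.19 and -0.03 and IWP2_removed at -0.18 and -0.11. The IWP2_removed libraries thus had like levels in both parts of chromosome 12, and the IWP2 libraries were higher in the distal part. Along chromosome 3 both stretches thus belonged to IWP2_removed, and on chromosome 13 the shift belonged to IWP2.

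**Figure D4:**
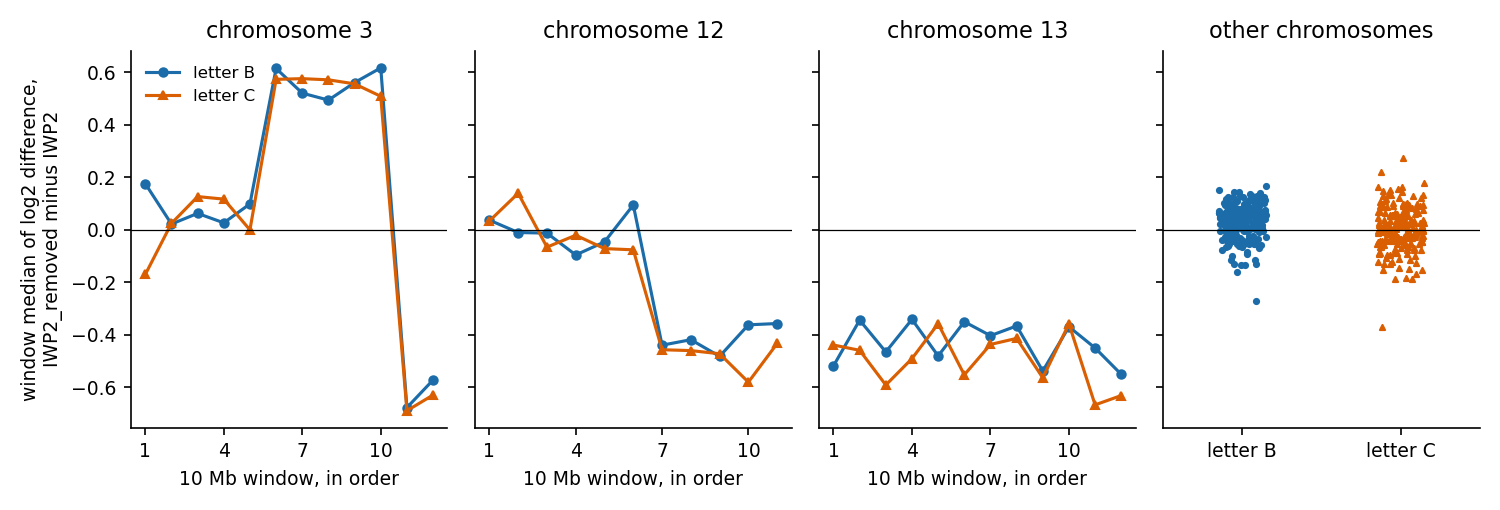
Median log2 difference in CPM between IWP2_removed and IWP2 in windows of 10 Mb, in order along chromosomes 3, 12 and 13 for letters B and C, with the windows of the other chromosomes at the right. Medians step up to between 0.49 and 0.62 and then down to between -0.57 and -0.69 on chromosome 3, and lie at -0.34 to -0.67 along chromosome 13.

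The stretches hold 1648 of the 18096 genes tested. Of the 11 called genes 5 lie in them: Pip5k1a and Snx27 in the middle of chromosome 3, Rtn1 on distal chromosome 12, and Gprin1 and Ube2ql1 on chromosome 13. The changes of Rtn1, Gprin1 and Ube2ql1 were 5.14-fold, 5.16-fold and 5.25-fold, beside medians of 0.722 and 0.712 times for distal chromosome 12 and chromosome 13, whereas Pip5k1a and Snx27 changed 2.10-fold and 1.98-fold beside a median of 1.5-fold. Gdf3, Zfp984, Olfr784, Gm42047, Gm45322 and Ttc30a1 lie elsewhere, and all 6 were called again in a fit without the genes of the stretches. Setdb1, a histone H3 lysine 9 methyltransferase in the middle stretch of chromosome 3, measured 120 and 106 CPM with IWP2 and 234 and 214 CPM after removal (edgeR adjusted p = 0.0612). Of the 44 genes 2-fold higher in both letters 8 lie in that stretch, which holds 415 of the genes tested. Of the 68 lower 9 lie on distal chromosome 12 (387 genes tested) and 7 on chromosome 13 (756 genes tested). Of the neuronal list 5 genes lie in the stretches, and of the 23 outside them 20 were lower in both letters, with a median of -1.20. The part of the stretches in these differences was not tested further.

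Distal chromosome 12 also holds the imprinted Dlk1-Meg3 cluster, from which Meg3, Rian and Mirg are transcribed from the maternal copy as non-coding RNAs and Dlk1 and Rtl1 from the paternal copy. Meg3 measured 735 and 658 CPM with IWP2, 338 and 262 CPM after removal and 411 and 369 CPM in control (edgeR adjusted p = 0.0595). Rian measured 1245 and 1364 CPM, 621 and 617 CPM, and 944 and 820 CPM (edgeR adjusted p = 0.0553). Mirg measured 52.9 and 76.3 CPM with IWP2 and 29.4 and 32.0 CPM after removal. In all of these the IWP2 libraries were the highest. Their log2 fold changes were -1.22, -1.08 and -1.07, beside the stretch's median of -0.47. Dlk1 measured 101 and 85.0 CPM against 47.1 and 68.0 CPM, with a log2 fold change of -0.69 ± 0.22. On chromosome 7 H19, a maternally expressed RNA, measured 641 and 351 CPM with IWP2, 973 and 1324 CPM after removal and 2182 and 3092 CPM in control (edgeR adjusted p = 0.207), and its paternally expressed neighbour Igf2 1048 and 741 CPM, 574 and 600 CPM, and 1169 and 1632 CPM. Of 32 imprinted genes tested 9 were higher and 14 lower in both letters, beside 27.6% and 25.4% of all genes tested. None was called by edgeR (1 higher and 8 lower at an unadjusted p below 0.05), and DESeq2 called H19 higher and Meg3, Rian and Mirg lower.

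A processed pseudogene, Gm10232, had 8.45 and 7.49 CPM in the IWP2 libraries and no read in either IWP2_removed or control library. With a floor of 3 counts over the IWP2_removed group it was at least 86.2-fold lower after removal (edgeR adjusted p = 0.0688). Counting floors cover counting error only, since copies made by PCR are not independent molecules. They do not cover an uncertain split of estimated reads between like sequences. Gm45234, annotated as protein coding, also had no read in either IWP2_removed library, beside 18.1 and 1.97 CPM with IWP2 (edgeR adjusted p = 0.356). Its control libraries had 0 (B) and 20.9 CPM (C), so such absence also differed within a group. Gm10232 and Gm45234 were named after their values were seen.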

How the data were processed

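RNA was sequenced from TruSeq stranded mRNA libraries. Per the labels and the deposited tables, the authors gave estimated counts, which are not whole where transcripts share reads, and TPM, a length-scaled level, for each transcript. Salmon, DESeq2 and edgeR are named, per the submitters' processing notes. For the transcriptome, the build was not given in the sources used here. Transcripts were matched to GENCODE vM21 (GRCm38): 133399 of 133618 matched, and the other 219 held 0.117% to 0.161% of reads. Gene totals were made for 52609 genes by adding these counts and rounding. Groups came from the labels and letters from the names of the deposited tables.

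Main values are from edgeR 4.0.16 (R 4.3.3): 1 quasi-likelihood fit to all 9 libraries (a mean for each group, no replicate term), TMM scaling and filterByExpr, which left 18096 genes. An adjusted p (Benjamini-Hochberg over all of these) below 0.05 made a call. CPM is on the TMM scale, and differences within a letter are of log2 CPM with a prior count of 2. An exact permutation test of 2 libraries against 2 cannot go below p = 0.333 and was not used. Estimated reads per library ran from 10849490 to 17892751. The script was tested on simulated data.

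The comparison, its genes and the 36 gene lists were chosen with earlier results of these data known. Named genes were Gdf3, Zfp984 and Rtn1, in each direction up to 12 genes called and at least 2-fold in both letters, filled by smallest p among genes 2-fold in both letters, and members of the lists. Called predicted genes, Pip5k1a, Snx27 and the members of lists or stretches that were not called were named after their values were seen. The values of 1 gene of the neuronal list are not reported here. Promoters are RefSeq, 250 bases upstream of each listed start, with none listed for Gdf3. Alternatives were other sets of libraries, a letter block, other scalings, filters, thresholds and units, DESeq2 1.42.0, limma 3.58.1, and each library left out.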

Additional observations from a re-analysis of the deposited data

How the results depend on the processing

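Counts of called genes depended on which libraries set the spread, while directions did not: all 11 called genes kept theirs under every alternative that tested them. Against 7 higher and 4 lower, edgeR gave 1 and 0 in the 6 libraries without Dkk1_KO (873 genes at an unadjusted p below 0.05) and 0 and 0 in the 4 compared (663 genes). Counts were 149 and 190 by the DESeq2 Wald test, 202 and 212 with no filter on low counts, 3 and 2 by limma-trend on log2(TPM + 1), 4 and 0 by glmTreat against a fold of 1.5 (574 genes at an unadjusted p below 0.05), and 10 and 8 with a filter of 1 CPM. DESeq2 size factors gave 8 and 6 and upper-quartile factors 7 and 4. Without the genes of the chromosome stretches, an alternative chosen after seeing the data, 5 were higher and 1 lower, fewer genes being tested. Leaving out 1 library in turn gave 0 to 195 higher and 0 to 317 lower. The high values came from leaving out an IWP2 library (195 and 200 without replicate 1, 137 and 317 without replicate 2), after which the lone IWP2 library is assumed to vary like the other groups and all 11 genes were called again. Without any 1 of the other 7 libraries, at most 2 of the 11 were. The cause was not tested.

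With letter as a replicate block, 3 genes were higher and 0 lower over 9 libraries (1813 genes at an unadjusted p below 0.05), 2 and 0 over 6 libraries (1910 genes) and 111 and 135 over the 4 compared. Of the 11 called genes these fits called 3, 2 and 11 again. Deviations of B from C correlated across 11859 genes at 0.65 between IWP2 and IWP2_removed, 0.42 and 0.66 between control and these, and 0.03, 0.07 and -0.01 with Dkk1_KO. No label says that a letter marks a shared line, batch or day, and only 2 pairs were compared, so the letters were not taken to pair the libraries.

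The 44 and 68 genes 2-fold higher and lower in both letters became 102 and 164 with a minimum of 1 CPM, 21 and 15 with 20 CPM, 22 and 28 on TPM + 1, 227 and 310 at a fold of 1.5, and 6 and 15 at a fold of 3. The 25 neuronal genes lower in both letters became 23 on TPM + 1, and the 17 feeder genes higher became 22. Of the single genes followed, log2 fold changes reversed in sign as libraries were left out in turn, with ranges of -0.33 to 0.63 (Lefty1), -0.39 to 0.84 (Nanog), -0.23 to 1.04 (Nodal), -0.81 to 0.94 (Pou5f1) and -1.68 to 0.57 (T). Pou5f1 also reversed, from -0.19, to 0.052 with the replicate block in 4 libraries and to 0.027 by limma-trend. Depth limits genes of a few CPM, such as the proneural factors.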
